A study of Mus musculus with 18 samples.

Results

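The loci of the interferon-induced gene families were examined for binding of PU.1 and the C/EBP factors α and β during the conversion of pre-B cells into macrophage-like cells. The members were the protein-coding genes of the mm9 annotation (GENCODE vM1) whose symbols start with Ifit, Ifitm, Ifi and a digit, Gbp and a digit, Oas, Irgm, Isg, or Mx and a digit. This gave 50 of 22380 protein-coding genes, among them 11 *Gbp*, 12 *Oas*, 6 *Ifitm*, 4 *Ifi200* (*Ifi202b* to *Ifi205*), 3 *Ifit*, 3 *Isg*, 2 *Irgm*, 2 *Mx* and 7 other *Ifi* genes. A locus was the gene with 10 kb on either side. Because the families stand in clusters, 31 of the 50 loci overlapped another member's locus, and the 50 loci merged into 30 stretches of 1431 kb in all. The members were chosen by symbol, so that *Isg20l2*, a nucleolar exonuclease, and *Ifitm5*, known from bone-forming cells, stand beside genes that interferon induces.

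Interferons are secreted proteins that activate receptor-bound JAK kinases, which phosphorylate STAT proteins. Complexes of STAT proteins bind the interferon-stimulated response element (ISRE) or the gamma-activated site (GAS) next to genes whose products block the entry, replication or intracellular growth of viruses and microbes. PU.1, an ETS factor of the myeloid and B lineages, can bind composite ETS-IRF elements together with IRF proteins.

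The cells of every library were C10 cells, a line derived from HAFTL pre-B cells that expresses an inducible fusion of C/EBPα with the estrogen receptor and GFP. β-estradiol moves the fusion into the nucleus, and the cells were grown with IL-3 and CSF-1, while control cells received the ethanol solvent. The 18 ChIP-seq libraries comprised 8 of C/EBPα (0 hpi, 10, 30 and 60 min, 3, 12, 24 and 48 hpi) and 5 each of PU.1 and C/EBPβ, at 0, 3, 12, 24 and 48 hpi. All libraries came from 1 cell line with 1 library per factor and time point, and the labels name no treatment with interferon. The labels and the study's methods differ in the unit of the β-estradiol concentration, so no dose is given. Transcripts were not measured in these libraries, so that the labelled cell type could not be checked with marker genes, and no level of expression is given for any member.

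The libraries held 2903580 to 24917810 reads with a unique position. The range was 6575348 to 11349746 in the PU.1 libraries, 5970869 to 24917810 in those of C/EBPα and 2903580 to 5844202 in those of C/EBPβ. The C/EBPα libraries of 10, 30 and 60 min were sequenced on another instrument with reads of 50 bases, in place of 36 bases for the other C/EBPα and the PU.1 libraries and 40 bases for C/EBPβ, so that early time and sequencing cannot be told apart. Those 3 libraries held 7.19 to 7.42% of their reads on chromosome 5, where 18 members lie, and the others 6.11 to 6.51%. A level is the number of reads in a bin of 200 bp, scaled to 10000000 reads per library. Levels of different antibodies cannot be set against each other. A bin was called in a library when its Poisson p against the larger of the library mean and the density of the surrounding 10 kb was at most 1e-06 and it held at least 4 times the surrounding density. Called bins of all libraries joined into 105 member sites, each represented by its leading bin, the bin with the largest summed level. With 1 library per time point, ratios compare libraries, not conditions, and the 95% intervals (exact Poisson for a level, exact conditional binomial for a ratio) cover counting error only.

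The sequences of 6 leading bins are given because these sites carried the highest C/EBPα (*Gbp7* and *Ifitm3*), C/EBPβ (both *Ifitm3* sites) and PU.1 levels (*Irgm1* and *Oasl1*) of all member sites, or lost C/EBPα while C/EBPβ rose (*Gbp2*). Distances run from the transcription start site (TSS) of the nearest member to the centre of the bin, negative upstream. Capitals mark matches on either strand to the consensus letters searched, TTGCNNAA for C/EBP, GAGGAAGT for PU.1 and TTCNNNGAA for GAS. The plus strand of mm9 is shown, and none of the 6 bins overlaps a UTR.
*Gbp7* -201, chr3:142193001-142193200, intergenic, no match: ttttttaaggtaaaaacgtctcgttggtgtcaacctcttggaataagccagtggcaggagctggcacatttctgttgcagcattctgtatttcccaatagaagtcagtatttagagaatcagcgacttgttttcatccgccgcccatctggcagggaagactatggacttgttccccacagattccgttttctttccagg
*Ifitm3* +2368, chr7:148194201-148194400, intergenic, 1 GAS and 1 C/EBP match: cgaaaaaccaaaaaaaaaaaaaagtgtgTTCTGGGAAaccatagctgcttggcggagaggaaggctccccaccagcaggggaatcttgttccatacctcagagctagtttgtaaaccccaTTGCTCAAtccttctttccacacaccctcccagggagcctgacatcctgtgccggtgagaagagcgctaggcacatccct
*Ifitm3* +11168, chr7:148185401-148185600, intergenic, no match: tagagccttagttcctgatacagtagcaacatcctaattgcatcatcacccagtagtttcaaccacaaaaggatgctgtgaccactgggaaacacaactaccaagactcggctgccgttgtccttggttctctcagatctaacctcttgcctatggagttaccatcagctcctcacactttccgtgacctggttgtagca
*Gbp2* -265, chr3:142283201-142283400, intergenic, 1 C/EBP match: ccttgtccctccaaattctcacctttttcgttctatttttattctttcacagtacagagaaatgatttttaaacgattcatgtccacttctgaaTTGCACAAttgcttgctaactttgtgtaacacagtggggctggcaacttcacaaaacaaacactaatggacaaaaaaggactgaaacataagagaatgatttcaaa
*Irgm1* +17368, chr11:48667401-48667600, intergenic, no match: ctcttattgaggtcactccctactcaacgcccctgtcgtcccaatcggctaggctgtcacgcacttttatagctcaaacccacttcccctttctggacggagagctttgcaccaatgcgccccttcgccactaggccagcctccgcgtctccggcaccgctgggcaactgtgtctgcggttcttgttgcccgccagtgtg
*Oasl1* -1148, chr5:115372001-115372200, intron of *Gm13822*, 1 PU.1 and 2 C/EBP matches: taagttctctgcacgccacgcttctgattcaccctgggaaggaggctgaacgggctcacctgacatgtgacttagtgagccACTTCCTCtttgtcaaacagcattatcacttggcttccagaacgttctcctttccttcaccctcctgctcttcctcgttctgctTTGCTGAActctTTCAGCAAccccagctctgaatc

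At the depths as sequenced, C/EBPα was called at the largest number of member loci at 3 hpi and C/EBPβ at 48 hpi. At equal depth, C/EBPα at 3 hpi (17 loci) was close to 60 min (16). PU.1 was called at 58% of member loci at 0 hpi, against 49.9% of all loci. That count depends on the window, and was 18 of 50 with 2 kb on either side, where no share of all loci is given. At 0 hpi, 2 of 50 loci had a called C/EBPα bin (4%, against 7.18% of all protein-coding loci). The number was 11 at 10 min (22%, against 19.7%), 16 at 30 min (32%, against 28.8%), 18 at 60 min (36%, against 35.8%) and 22 at 3 hpi (44%, against 35.4%). It was 11 at 12 hpi (22%, against 25.2%), 13 at 24 hpi (26%, against 21.8%) and 12 at 48 hpi (24%, against 20.0%). At the depths as sequenced, the member share was below that of all loci at 0 and 12 hpi and above it in the other libraries, by most at 3 hpi. C/EBPβ was called at 0 member loci at 0 hpi (background 2.31%), at 3 at 3 hpi (6%, against 13.4%), 6 at 12 hpi (12%, against 8.31%), 13 at 24 hpi (26%, against 14.9%) and 24 at 48 hpi (48%, against 28.3%). The members were below all loci at 3 hpi and above them at 24 and 48 hpi. PU.1 was called at 29 loci at 0 hpi (58%, against 49.9%), 33 at 3 hpi (66%, against 53.3%), 40 at 12 hpi (80%, against 68.7%), 37 at 24 hpi (74%, against 60.8%) and 39 at 48 hpi (78%, against 57.7%). When the libraries of a factor were thinned to its smallest, the C/EBPα numbers became 0, 1, 15, 16, 17, 11, 9 and 9, beside 4.71, 8.29, 20.9, 23.2, 26.8, 25.2, 18.4 and 16.3% of all loci. For C/EBPα at equal depth, the members were thus also below all loci at 10 min, near them at 24 hpi, and above them by most at 30 min. The C/EBPβ numbers became 0, 3, 6, 12 and 18, beside 1.48, 7.82, 8.31, 14.2 and 21.6% of all loci, so that the gap between members and all loci at 3 hpi was smaller at equal depth. The PU.1 numbers became 29, 33, 35, 31 and 35, beside 48.4, 53.3, 61.8, 52.2 and 50.9%. The step in C/EBPα between 10 and 30 min was thus seen at equal depth both in member loci and in all loci.

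**Figure D1:**
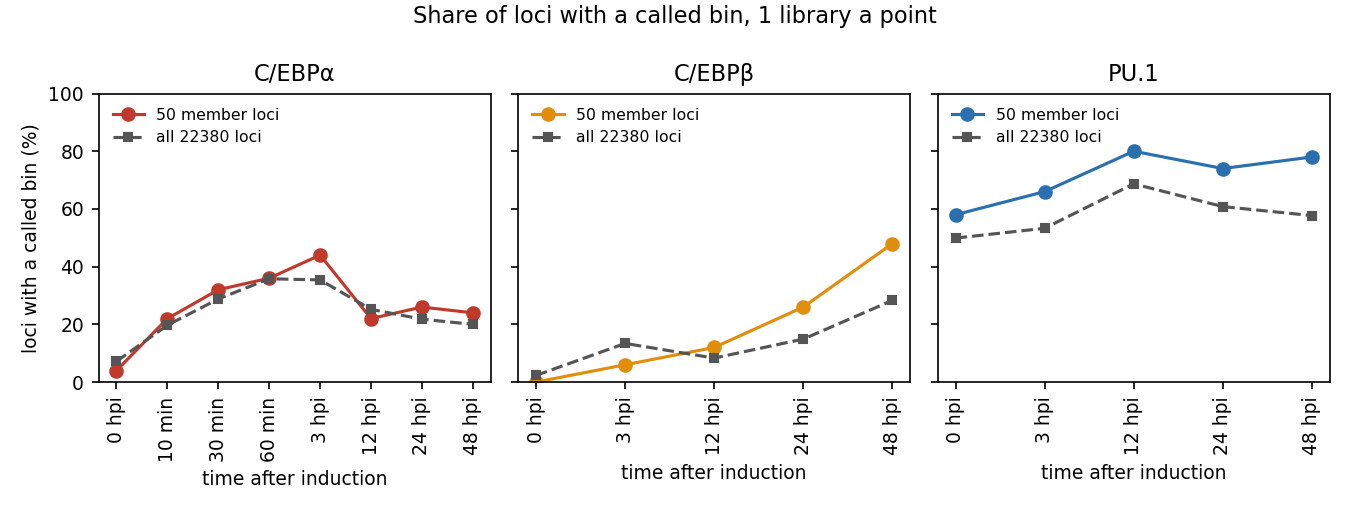
Share of the 50 member loci (coloured circles) and of all 22380 protein-coding loci (grey squares) with at least 1 called bin, 1 panel per factor, with 1 library a point and the time points evenly spaced, not to scale. C/EBPβ at member loci rose from 0% at 0 hpi to 48% at 48 hpi, and PU.1 was at 58% or more in all 5 libraries.

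Over all libraries of a factor, 26 of the 50 member loci had a C/EBPα call (beside 50% of all loci), 24 a C/EBPβ call (31.4%) and 44 a PU.1 call (72.1%), and 46 had a call of any factor (75.1%). The count for C/EBPα was near that of all loci. The 105 sites comprised 34 with C/EBPα, 28 with C/EBPβ and 81 with PU.1, beside 21635, 9224 and 44347 of 57683 sites over all loci. All 3 factors were at 11 member sites. C/EBPα and C/EBPβ shared 18 sites, C/EBPα and PU.1 17, and C/EBPβ and PU.1 14, while 61 sites had PU.1 alone. No share over all loci is given for these overlaps, so they describe the members only. By annotation, 50 leading bins were intergenic, 36 in introns, 11 in UTRs, 6 in coding exons and 2 in other exons. A member was the nearest protein-coding gene for 80 sites. The 4 members with no call were *Gbp10*, *Oas1a*, *Oas1d* and *Ifi44*. Reads were kept only where they aligned uniquely, and in the *Gbp10* locus 37.1% of the 36-base words occur once in the genome, against 66.3% for *Oas1a*, 74.0% for *Oas1d* and 94.4% for *Ifi44*. In the merged member loci this share was 79.0%, against 89.1% over all protein-coding loci. It was lowest for the *Ifi200* genes (57.8%) and the *Gbp* genes (71.3%). Reads from sequence that is not unique could not enter these counts.

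**Figure D2:**
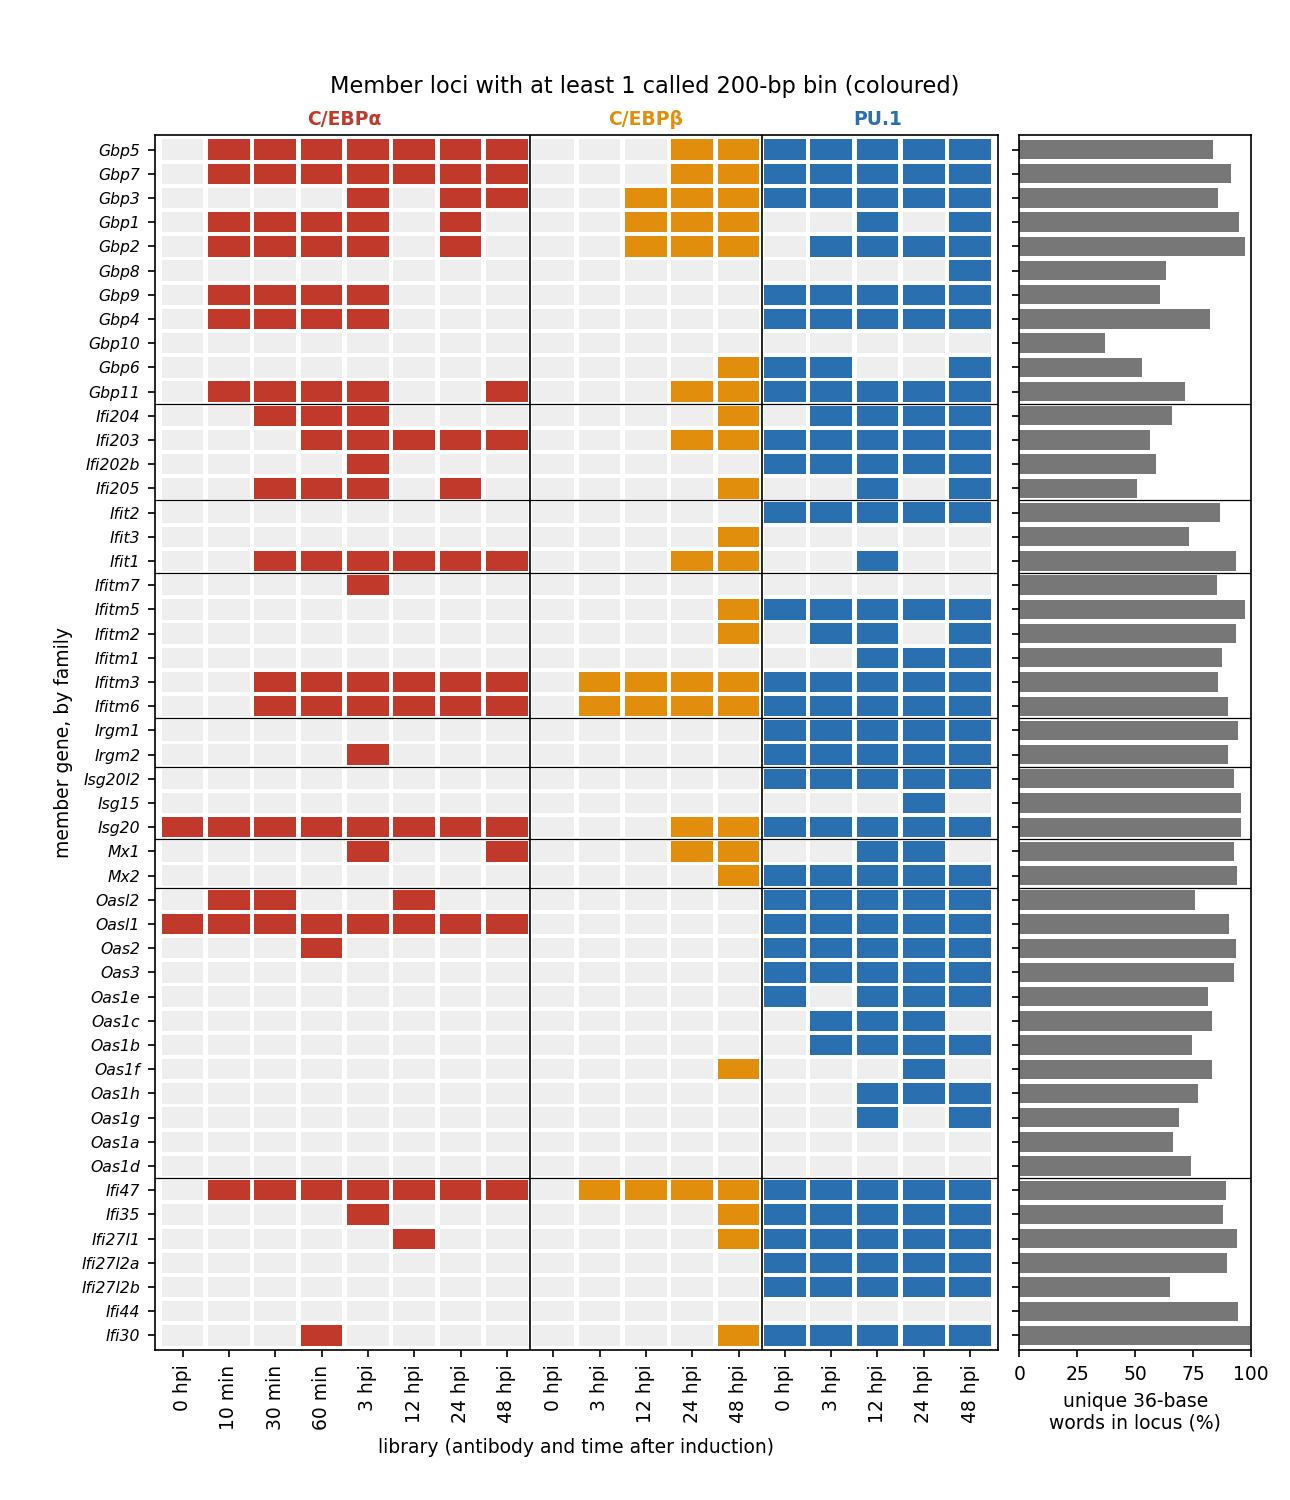
Each of the 50 members (rows, by family) in each of the 18 libraries (columns), coloured where its locus held at least 1 called bin, with the share of unique 36-base words in the locus as bars at the right, in percent. *Isg20* and *Oasl1* were coloured in all 8 C/EBPα libraries, and *Gbp10*, *Oas1a*, *Oas1d* and *Ifi44* in none of the 18.

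The highest C/EBPα level at any member stood just upstream of *Gbp7*, a guanylate-binding GTPase that acts on vacuoles holding microbes. At the *Gbp7* -201 site C/EBPα was 2.26 at 0 hpi, 13.2 at 10 min, 89.2 at 30 min (95% interval from 73.7), 84.5 at 60 min, 44.9 at 3 hpi, 85.4 at 12 hpi, 34.3 at 24 hpi and 28.9 at 48 hpi. It was high from 30 min to 12 hpi and stayed called to 48 hpi, when it was 12.8-fold the level at 0 hpi (3.17 to 112). Of all C/EBPα sites, 4.15% had a higher maximum. C/EBPβ at this bin was 0, 13.7, 10.3, 38.4 and 45.3 at 0, 3, 12, 24 and 48 hpi. At 48 hpi it was 6.47-fold the level of 3 reads at 0 hpi, and the lower 95% limit of the ratio was 4.85. PU.1 was called at this site in all 5 libraries, and in its highest bin (chr3:142193201-142193400) it was 34 at 0 hpi, 71.5 at 3 hpi, 39.2 at 12 hpi, 30.8 at 24 hpi and 22 at 48 hpi, highest at 3 hpi and lowest at 48 hpi.

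The *Ifitm* genes encode small membrane proteins that hinder the fusion of viruses with the cell, and the stretch around *Ifitm3* and *Ifitm6* held 3 of the 6 sites with the highest C/EBPα. At *Ifitm3* +2368 C/EBPα was 4.51, 2.41, 13.8, 20.5, 54.8, 88.8, 42.2 and 35.2 over the 8 time points, highest at 12 hpi and 7.80-fold higher at 48 than at 0 hpi (2.73 to 30.6). At *Ifitm6* -110 (chr7:148202801-148203000, intergenic) it was 1.13, 3.61, 18.5, 33.3, 58.4, 56.9, 40.9 and 54.0. This was the largest ratio of C/EBPα among member sites with a read at 0 hpi, 47.9-fold from 1 read at 0 hpi, with an interval of 8.16 to 1936. At *Ifitm3* +11168 it was 6.77, 4.82, 11.5, 20, 50.3, 51.9, 39.5 and 30.2, or 4.46-fold at 48 hpi (1.78 to 13.3). All 3 sites were called from 30 min to 48 hpi. Their highest values came at 3 or 12 hpi.

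A 4th site of this cluster, *Ifitm6* -5310 (chr7:148208001-148208200, intergenic), gained C/EBPα later than the others. C/EBPα there was 0, 3.21, 0, 0.512, 3.59, 18.4, 31.6 and 30.2. At 48 hpi it was 8.92-fold the level of 3 reads at 0 hpi (lower limit 6.71), and 8.39-fold higher than at 3 hpi (2.88 to 33.3). PU.1 in the same bin was 2.84 at 0 hpi, 7.60 at 3 hpi, 44.8 at 12 hpi, 56.4 at 24 hpi and 86.0 at 48 hpi. PU.1 was not called there at 0 or 3 hpi, and its 30.3-fold rise (8.15 to 254) was the largest among PU.1 sites of members with a read at 0 hpi. In the neighbouring bin (chr7:148208201-148208400) C/EBPβ was 0, 3.42, 13.8, 35.2 and 65.0.

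**Figure D3:**
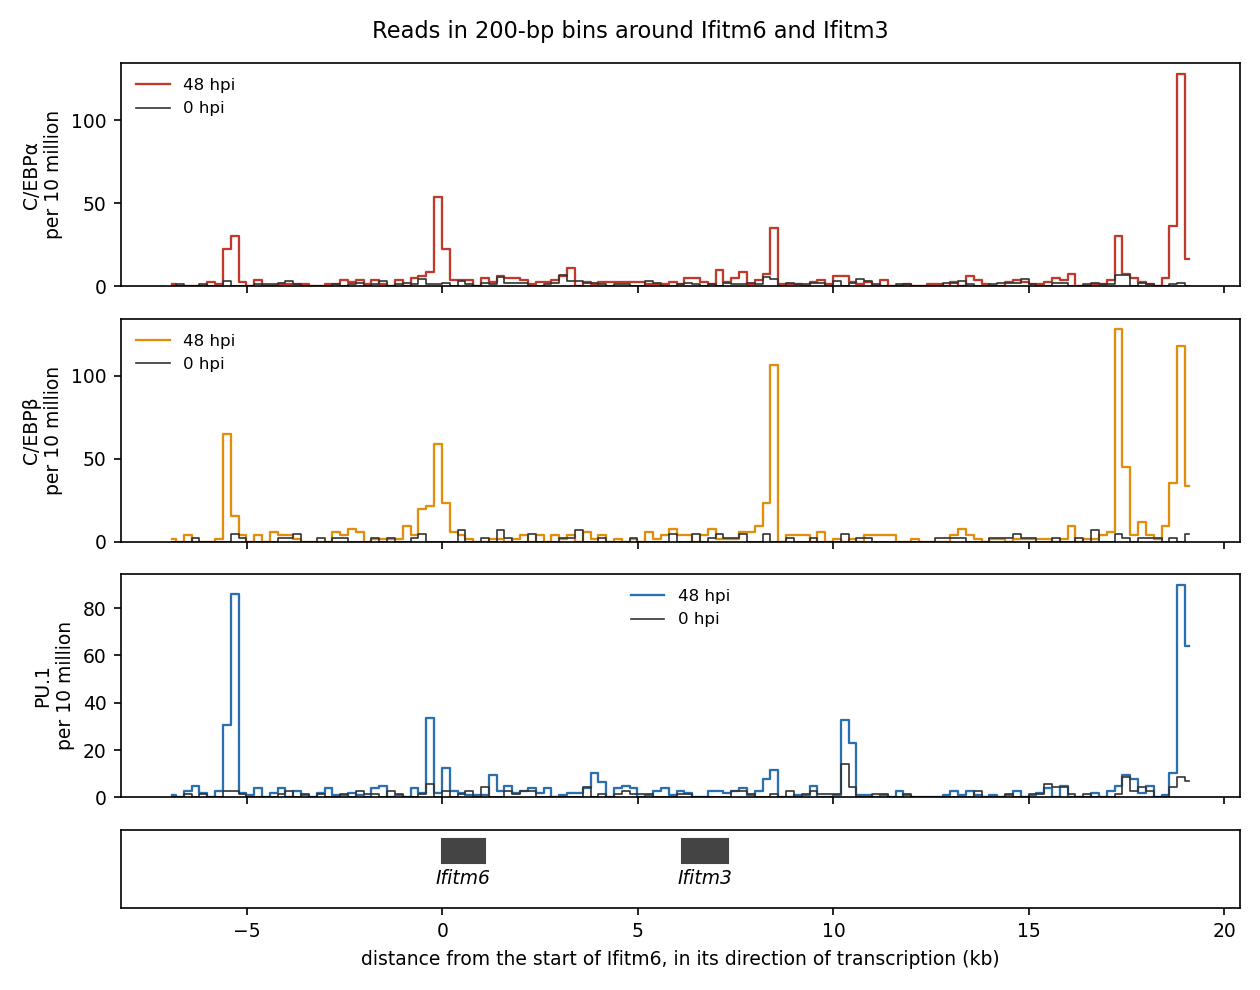
Level (reads in 200-bp bins scaled to 10000000 per library) of each factor at 48 hpi (coloured) and 0 hpi (dark), by distance from the *Ifitm6* TSS in kb, with *Ifitm6* and *Ifitm3* drawn as boxes below. C/EBPα and C/EBPβ stand at the *Ifitm6* TSS and beyond the end of *Ifitm3* at 48 hpi, and PU.1 and C/EBPα upstream of *Ifitm6*, where PU.1 went from 2.84 to 86.0; a high bin near the right edge lies outside the 10 kb around *Ifitm3*.

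C/EBPα at *Ifi47*, *Gbp2* and *Gbp11* was early and then fell. *Ifi47* encodes an immunity-related GTPase, and at its TSS (*Ifi47* +12, chr11:48890001-48890200, in the UTR) C/EBPα was 3.38, 14.1, 65.4, 51.7, 51.2, 30.2, 25 and 21.4. It was 2.40-fold lower at 48 than at 3 hpi (1.38 to 4.40) but still 6.32-fold above 0 hpi (1.83 to 33.6). At *Gbp2* -265 it was 5.64, 6.02, 42.3, 56.8, 36.8, 6.70, 13.2 and 7.54, and the level at 60 min was 7.53-fold that at 48 hpi (3.35 to 21.0). At 48 hpi it was not distinguishable from 0 hpi (ratio 1.34, 0.340 to 5.54). At *Gbp11* -1353 (chr5:105774201-105774400, intergenic) it was 5.64, 7.22, 34.6, 39.9, 31.5, 0, 6.59 and 12.6. At both *Gbp* sites C/EBPα was thus high from 30 min to 3 hpi and near or below its 0 hpi level at 12 hpi. At *Gbp11* -1353 it was called again at 48 hpi, at a level not distinguishable from 0 hpi (ratio 2.23, 0.694 to 8.31).

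C/EBPβ at these *Gbp* sites was highest at the end. At *Gbp2* -265 it was 4.67, 10.3, 37.9, 48.0 and 76.8 at 0, 3, 12, 24 and 48 hpi, a 16.5-fold rise (4.26 to 141), and at *Gbp11* -1353 it was 7.0, 3.42, 10.3, 22.4 and 65.0. The C/EBPβ values at 48 hpi were the highest of the 5 at both sites. At *Ifi47* +12 C/EBPβ had no such steady course, with 0, 37.6, 6.89, 41.6 and 35.5.

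**Figure D4:**
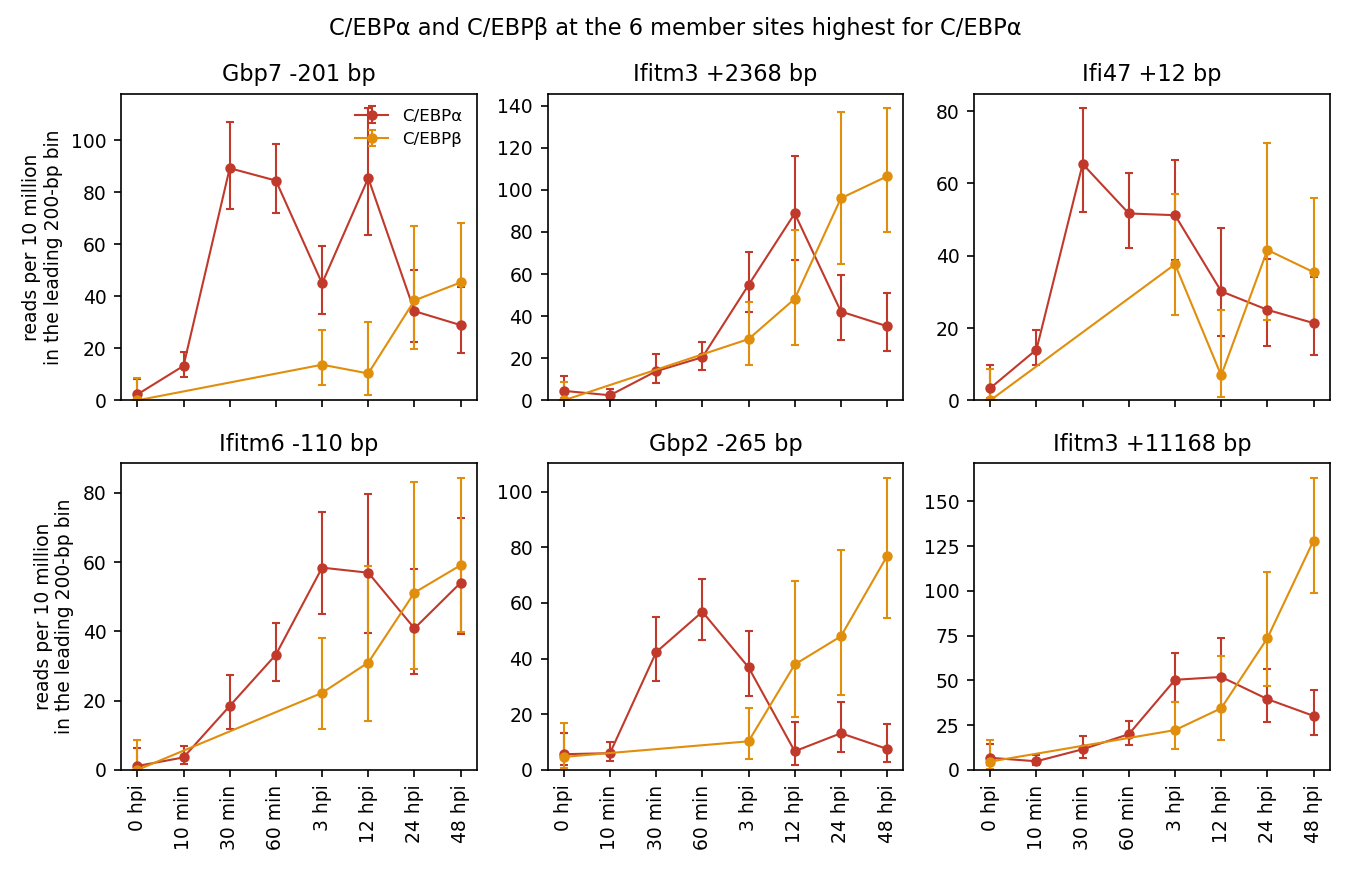
C/EBPα (red) and C/EBPβ (orange) in the leading bins of the 6 member sites with the highest C/EBPα, as scaled read levels with exact Poisson 95% intervals of counting error, with time points evenly spaced, not to scale. At *Gbp2* -265 C/EBPα peaks at 56.8 at 60 min while C/EBPβ reaches 76.8 at 48 hpi, and at *Ifitm3* +2368 both are above 30 from 12 hpi on.

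The 2 highest C/EBPβ sites of members both lay downstream of *Ifitm3*. At *Ifitm3* +11168 C/EBPβ was 4.67, 22.2, 34.4, 73.6 and 128 (98.8 to 163 at 48 hpi), a 27.4-fold rise (7.29 to 231), and 2.84% of all C/EBPβ sites had a higher maximum. At *Ifitm3* +2368 it was 0, 29.1, 48.2, 96.0 and 106, or 15.2-fold the level of 3 reads at 0 hpi (lower limit 11.9). At *Ifitm6* -110 it was 0, 22.2, 31.0, 51.2 and 59.1. These 3 sites were called from 3 hpi on. They belong to the 4 C/EBPβ sites of members, with *Ifi47* +12, that were called at 3 hpi (14.3% of 28, against a background of 35.9% of all C/EBPβ sites). At 48 hpi 27 of the 28 were called (96.4%, against 84.0%).

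Most other C/EBPβ sites appeared at 24 or 48 hpi. *Mx1* encodes a dynamin-like GTPase that traps viral nucleoproteins, and at *Mx1* -188 (chr16:97684601-97684800, intergenic) C/EBPβ was 4.67, 1.71, 0, 41.6 and 88.7, a 19-fold rise (4.96 to 162). Near the TSS of *Isg20*, an exonuclease that degrades RNA, C/EBPβ was 4.67, 8.56, 20.7, 35.2 and 78.8 (*Isg20* +50, chr7:86058601-86058800, in the UTR), or 16.9-fold (4.38 to 144). C/EBPα at *Isg20* +50 was called in all 8 libraries, the only member site of which this was true (background 2.25% of all C/EBPα sites), with 13.5 at 0 hpi, 9.63, 10.0 and 14.8 at 10, 30 and 60 min, and 22.5, 30.2, 18.5 and 16.3 at 3, 12, 24 and 48 hpi. The site was therefore called for C/EBPα before induction, and 48 hpi was not distinguishable from 0 hpi (ratio 1.21, 0.508 to 2.90). The level at 0 hpi rests on 12 reads, and without an input library unspecific signal was not assessed.

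A further site lay in the window of *Ifi203*, a member of the HIN-200 proteins that bind DNA, but next to another gene of that family. It stood at -48 bp from the TSS of *Mnda* in an intron of *Mndal* (chr1:175843001-175843200), and neither gene is a member by symbol. C/EBPβ was 2.34, 3.42, 17.2, 51.2 and 80.8, the largest ratio of C/EBPβ among member sites with a read at 0 hpi (34.6-fold from 1 read at 0 hpi, 5.87 to 1399). C/EBPα there was 1.13, 4.82, 4.61, 20, 25.2, 21.8, 17.1 and 28.9, or 25.6-fold (4.16 to 1056). Both factors had their highest value at 48 hpi, but C/EBPα was then not distinguishable from 3 hpi (ratio 1.15, 0.632 to 2.07).

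PU.1 had its highest levels at *Irgm1*, *Oasl1*, *Ifi202b* and *Gbp11*, and each was there before induction. *Irgm1* encodes an immunity-related GTPase that regulates other GTPases of its kind. At *Irgm1* +17368 PU.1 was 248 (213 to 288), 242, 214, 162 and 203 at 0, 3, 12, 24 and 48 hpi, and 0.203% of all PU.1 sites had a higher maximum. The ratio of 48 to 0 hpi was 0.816 (0.665 to 1.0). *Oasl1* is a relative of the oligoadenylate synthetases, which sense double-stranded RNA and switch on RNase L. At *Oasl1* -1148 PU.1 was 233, 186, 163, 134 and 150, with a ratio of 0.645 (0.515 to 0.808), so that it was lower after induction by less than the 2-fold set for a change. *Ifi202b* belongs to the HIN-200 family, and in its intron at +5074 (chr1:175907801-175908000) PU.1 was 140, 170, 118, 70.5 and 119. At *Gbp11* -1353 PU.1 was 129, 158, 95.2, 67.8 and 148. These 4 sites were called in all 5 PU.1 libraries, as were 28 of 81 PU.1 sites of members (34.6%, against a background of 25.4%).

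The other 2 of the 6 sites with the highest PU.1 were at *Isg20l2* and *Ifi203*. At *Isg20l2* -735 (chr3:87733401-87733600, intron of *Rrnad1*) PU.1 was 51.1, 71.5, 79.3, 53.8 and 108, a 2.12-fold rise (1.44 to 3.17). At *Ifi203* -9698 (chr1:175882401-175882600, intergenic) it was 48.2, 77.6, 104, 52.0 and 70.7, a ratio of 1.47 (0.965 to 2.27) that was not distinguishable from no change. Both were present at 0 hpi. Apart from *Ifitm6* -5310, the largest rises were at sites that reached 13.4 to 29.6 at 48 hpi. PU.1 was 0, 6.08, 6.53, 11.5 and 29.6 at *Isg20* -4609 (chr7:86053601-86053800, UTR of *Aen*), or 6.96-fold the level of 3 reads at 0 hpi (lower limit 5.33). It was 0, 1.52, 4.67, 10.6 and 22 at *Ifitm5* +3037 (chr7:148133001-148133200, UTR of *Athl1*), or 5.17-fold the level of 3 reads at 0 hpi (lower limit 3.87). At *Gbp4* -3496 (chr5:105572001-105572200, intergenic) it was 1.42, 0, 10.3, 5.29 and 13.4, or 9.43-fold from 1 read (1.44 to 399). The *Isg20* and *Ifitm5* sites lie in the transcripts of neighbouring genes and were called at 48 hpi only.

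The largest falls of PU.1 were at sites with 9.93 to 25.5 at 0 hpi. At *Irgm1* +7368 (chr11:48677401-48677600, in an exon of *Irgm1*) it was 18.4, 4.56, 11.2, 11.5 and 0.956, so that 0 hpi was 19.3-fold above 48 hpi (2.90 to 820). *Ifi30* encodes a lysosomal thiol reductase of antigen-presenting cells, and at *Ifi30* -1251 (chr8:73292201-73292400, UTR of *Pik3r2*) PU.1 was 25.5, 19.8, 36.4, 15 and 1.91, or 13.4-fold (3.20 to 119). It was 9.93, 1.52, 7.47, 9.69 and 0.956 at *Gbp3* +9703 (chr3:142233801-142234000, coding exon of *Gbp3*), or 10.4-fold (1.34 to 468), and 11.3, 9.13, 1.87, 2.64 and 1.91 at *Mx2* +33211 (chr16:97790801-97791000, intron of *Tmprss2*), or 5.94-fold (1.19 to 57.4). Of these 4, only *Ifi30* -1251 was called in the 4 libraries before 48 hpi. *Gbp3* +9703 was called at 24 hpi alone, so that its fall started from a bin not called at 0 hpi.

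**Figure D5:**
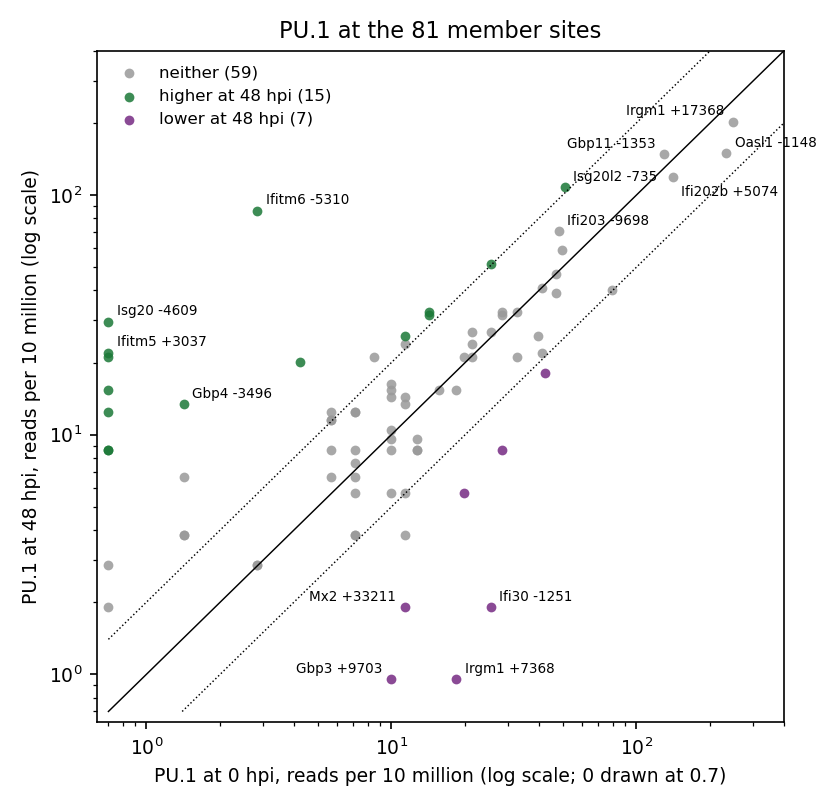
PU.1 at the 81 PU.1 sites of members, as scaled read levels at 0 hpi (horizontal) and 48 hpi (vertical), both on log scales with 0 drawn at 0.7, the line of equality and dotted lines at 2-fold. The highest sites, *Irgm1* +17368 and *Oasl1* -1148, lie near equality, *Ifitm6* -5310 stands far above it (2.84 and 86.0), and 15 sites were higher and 7 lower at 48 hpi.

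A site was counted as changed when the 2 libraries differed by at least 2-fold and the interval of the ratio did not include 1. Reads were taken in the leading bin, chosen over all libraries and factors. A peak of 1 factor in a neighbouring bin could therefore be missed. Of the 34 C/EBPα sites of members, 10 were higher at 48 than at 0 hpi (29.4%, against 17.8% of all C/EBPα sites) and 0 lower (background 1.15%). Besides the sites above, they included *Mx1* -188, *Ifi204* -51 and *Ifit1* -7060, where C/EBPα was 0 at 0 hpi and 25.1 at 48 hpi. *Ifi204* -51 passed narrowly, from 1 read to 7 (7.80-fold, 1.002 to 352), and was not called for C/EBPα at 48 hpi. Of the 28 C/EBPβ sites, 19 were higher in the leading bin (67.9%, against 63.9%) and 0 lower (background 0.358%), a share near that of all sites. Of the 81 PU.1 sites, 15 were higher (18.5%, against 15.7%) and 7 lower (8.64%, against 9.57%), again near all sites. When the 2 neighbours of the leading bin were added, 23 C/EBPβ, 12 C/EBPα and 13 PU.1 sites were higher. No share of all sites is given for that width, so the comparison with all sites holds for the leading bin only. Between 3 and 48 hpi, 2 C/EBPα sites rose (5.88%, against 4.54%) and 7 fell (20.6%, against 33.0%). The 7 were *Gbp2* -265, *Gbp11* -1353, *Ifi47* +12, *Oasl1* +3428 and the 3 C/EBPα sites of *Ifi205*. The early C/EBPα bin of *Gbp9* and *Gbp4*, with 15.3 at 3 hpi and 2.51 at 48 hpi, is not a leading bin and was not scored. With the leading bin and its 2 neighbours, 8 C/EBPα sites fell. Sites enter these counts because they were called in some library, so the shares describe sites that were high at one time at least.

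The median C/EBPα level at member sites was 2.26 at 0 hpi, 8.99 at 3 hpi and 6.28 at 48 hpi, beside 2.26, 9.88 and 3.77 over all C/EBPα sites. At 48 hpi 13 of the 34 sites were called (38.2%, against a background of 21.6%). C/EBPα was highest at 60 min at 10 sites (21.3% of all C/EBPα sites), at 3 hpi at 9 (29.9%), at 12 hpi at 8 (17.3%), at 30 min at 4 (15.5%), at 48 hpi at 2 (6.62%) and at 24 hpi at 1 (6.61%). The median C/EBPβ level was 3.5, 3.42, 6.89, 16 and 32.5 at 0, 3, 12, 24 and 48 hpi, beside 2.34, 8.56, 10.3, 16 and 23.6 over all sites, and 22 of 28 sites were highest at 48 hpi (78.6%, against 68.7% of all). The members thus had a lower median than all sites at 3 and 12 hpi and a higher one at 48 hpi. The median PU.1 level was 11.3 at 0 hpi and 14.3 at 48 hpi (all sites 8.51 and 10.5), and 30 of 81 sites were highest at 12 hpi (37.0%, against 41.9%). The density outside called sites changed as well. In member loci it went from 0.968 to 1.13 reads per bin for C/EBPα and from 1.07 to 1.27 for C/EBPβ between 0 and 48 hpi, on the same scale, while over all loci it went from 0.914 to 0.893 and from 0.915 to 0.849. Its part in the counts was not tested. The scaling alternative scaled each library as a whole and cannot follow a change in member loci alone.

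PU.1 before induction was examined because the study asked at which C/EBPα sites PU.1 was already present. Of the 34 C/EBPα sites of members, 12 had a called PU.1 bin at 0 hpi within 1000 bp (35.3%, against 29.0% of all C/EBPα sites). Among the 13 called for C/EBPα at 48 hpi, it was 5 (38.5%, against 37.5%), and 12 of these 13 had a C/EBPβ bin at 48 hpi (92.3%, against 74.6%) and 8 a PU.1 bin at 48 hpi (61.5%, against 63.1%). Among all 34 sites, 18 had a PU.1 bin at 48 hpi (52.9%, against 38.3%). Apart from this share, the PU.1 shares were near those of all C/EBPα sites. *Gbp7* -201 and *Gbp11* -1353 had a PU.1 call at 0 hpi, and *Ifitm6* -5310 and *Ifitm6* -110 had none. At *Ifitm6* -110 the neighbouring bin (chr7:148203001-148203200) had PU.1 of 5.67 at 0 hpi and 30.4, 48.5, 30.0 and 33.4 at 3, 12, 24 and 48 hpi, so that PU.1 there was called from 3 hpi on.

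The counts of called genes by family stand beside the shares of all loci with a call in any library, 50% for C/EBPα, 31.4% for C/EBPβ and 72.1% for PU.1, and the families are small. The 11 *Gbp* genes had 22 sites, and C/EBPα was called at 8 of the genes, C/EBPβ at 7 and PU.1 at 10. *Gbp9* and *Gbp4* shared an early C/EBPα bin (chr5:105539601-105539800) with 0, 8.83, 33.1, 25.1, 15.3, 1.68, 2.64 and 2.51, while *Gbp8* had 1 PU.1 call at 48 hpi. At *Gbp3* +503, in its intron, C/EBPβ was 7.0, 5.13, 44.8, 60.8 and 65.0. The 12 *Oas* genes had 16 sites, of which 12 were PU.1 sites at 10 genes. C/EBPα was called at 3 of these genes, *Oasl1*, *Oasl2* and *Oas2*, and C/EBPβ at *Oas1f* alone. At the starts of *Oas2* (-39) and *Oas3* (-31) PU.1 was 32.6 and 11.3 at 0 hpi and 32.5 and 23.9 at 48 hpi. Over all protein-coding loci 44347 of 57683 sites were PU.1 sites, a share near that of the *Oas* genes.

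The 4 *Ifi200* genes had 11 sites, 7 of them with C/EBPα, beside 21635 of 57683 sites over all protein-coding loci. *Ifi205* had 3 C/EBPα sites upstream that were highest at 3 hpi, with 15.3, 27.9 and 26.1 against 3.77 at each at 48 hpi. The PU.1 calls of *Ifi204* came from a bin at the edge of its window whose site lies outside it. The *Ifitm* genes had 13 sites, with C/EBPα at 3 genes, C/EBPβ at 4 and PU.1 at 5, and *Ifitm7*, which lies apart from the cluster, had 1 C/EBPα call at 3 hpi. *Irgm1* and *Irgm2* had 9 sites, 8 with PU.1, 1 with C/EBPα and 0 with C/EBPβ (44347, 21635 and 9224 of 57683 over all loci). The 3 *Ifit* genes, whose products bind viral RNA, had 6 sites. PU.1 at *Ifit2* -83 was 7.09, 12.2, 22.4, 21.2 and 12.4, and at *Ifit1* -7060 C/EBPα was 38.5 at 12 hpi and C/EBPβ 48.0 at 24 hpi. *Isg15*, a ubiquitin-like protein gene, had 1 PU.1 call at 24 hpi (9.69), in a UTR of *AW011738*. *Mx2* had C/EBPβ of 23.6 at -189 at 48 hpi. The 7 other *Ifi* genes had 19 sites, 17 with PU.1 (44347 of 57683 over all loci). PU.1 was called in all 5 libraries at *Ifi47*, *Ifi35*, *Ifi30* and the *Ifi27l* genes, which share a cluster.

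A larger share of member sites than of all sites lay near a start. Of the 105 sites, 39 lay within 1000 bp of a protein-coding TSS (37.1%, against 17.2% of all sites), 27 of them of a member's TSS. For C/EBPα it was 16 of 34 (47.1%, against 18.3%), for C/EBPβ 17 of 28 (60.7%, against 16.2%) and for PU.1 29 of 81 (35.8%, against 18.7%). The member genes are closely packed, and 12.5% of all bins in their loci lay within this distance of a TSS, against 5.14% in all loci. Sites were also denser, with 7.34 per 100 kb against 4.60, or 9.29 against 5.16 per 100 kb of unique sequence. At 48 hpi 50.3 of 10000 member bins were called for C/EBPβ, against 16.5 in all loci, and 23.8 against 9.57 for C/EBPα. The part of the packing of starts in these densities was not tested.

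The consensus letters were counted in the 200-bp leading bins on both strands. The C/EBP letters TTGCNNAA stood in 12 of 34 C/EBPα sites (35.3%, against 29.8% of all C/EBPα sites) and 9 of 28 C/EBPβ sites (32.1%, against 40.8%), while 8.59% of all bins of protein-coding loci held them. The PU.1 letters GAGGAAGT stood in 20 of 81 PU.1 sites (24.7%, against 21.1%, with 1.18% of all bins). The interferon-related patterns stood in a small share of the member sites. The ISRE core GAAANNGAA stood in 12 of 105 member sites (11.4%, against 7.59% of all sites and 7.18% of all bins), GAS TTCNNNGAA in 13 (12.4%, against 6.66% and 6.59%), and the ETS-IRF letters GGAANNGAA in 14 (13.3%, against 12.0% and 6.33%). The ISRE core and ETS-IRF letters can overlap in 1 stretch. *Oasl1* -1148 and *Isg20l2* -735 held the PU.1 letters, whereas *Irgm1* +17368, with the most PU.1, held none of the 5.

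The genes of the interferon pathway outside the families were followed as a list of 32, of which 31 were in the annotation, with 143 sites. C/EBPα was called at 1 of the 31 loci at 0 hpi and 10 at 48 hpi (7.18 and 20.0% of all loci), C/EBPβ at 0 and 13 (2.31 and 28.3%), and PU.1 at 24 and 27 (49.9 and 57.7%). Of 52 C/EBPα sites 12 were higher at 48 than at 0 hpi and 0 lower (17.8 and 1.15% of all sites), of 17 C/EBPβ sites 14 and 0 (63.9 and 0.358%), and of 120 PU.1 sites 21 and 9 (15.7 and 9.57%). The counts of changed PU.1 sites were near those of all sites, whereas PU.1 was called at a larger share of the 31 loci than of all loci. By role, the receptors and kinases (7 genes) held 23 of the C/EBPα sites, 5 of them higher, the transcription factors (6 genes) 14 with 4 higher, the sensors and other effectors (15 genes) 11 with 3 higher, and the inhibitors (3 genes) 4 with 0 higher. C/EBPα was highest in the loci of *Irf8*, a factor of the myeloid lineage (59.3 at 3 hpi, 11.3 at 48 hpi), *Tyk2*, a receptor kinase (50.2 at 12 hpi), and *Stat2* (49.4 at 3 hpi, 42.7 at 48 hpi). The *Stat2* bin lay 27869 bp downstream of the *Stat2* start, beyond the end of the gene. C/EBPβ was highest at *Rsad2*, the antiviral viperin gene (2.34 at 0 hpi, 72.9 at 48 hpi) and at *Dhx58*, an RNA sensor (55.2 at 48 hpi). PU.1 was highest in the loci of *Irf1* (138 at 0 hpi, 116 at 48 hpi), *Socs3*, an inhibitor of JAK signalling (128 at 12 hpi), and *Irf7* (86.5 at 0 hpi, 120 at 3 hpi, 22.9 at 48 hpi). The *Socs3* bin lay 8999 bp downstream of a *Socs3* start, beyond the end of the gene. The loci of *Tgtp2* and *Igtp* overlap those of *Ifi47* and *Irgm2*.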

How the data were processed

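The authors mapped reads to mm9 (ELAND or Bowtie, no mismatch), discarded those without a unique place and repeats of the same tag, and deposited the position and strand of each remaining read, without any scaling (the aligner of each library and its version are not given in the sources used here). Input libraries were not used here. One read per position and strand was kept (at most 2.51% removed), unplaced reads were left out, and each 5′ end was moved 75 bp inward before counting in 200-bp bins. Called bins were joined across gaps of at most 1 bin. Sequence and annotation were NCBIM37 and GENCODE vM1. Python 3.11.15, NumPy 2.4.6, SciPy 1.17.1 and pandas 2.3.3 were used, and the calling was tested on simulated data.

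The members and lists were chosen with earlier results of these data known. Named were, per factor, the 6 highest member sites and the 4 largest rises and falls from 0 to 48 hpi, and pathway genes by the 3 highest sites, of which 1 is not reported here. Other sites, including those given by family, were named after their values were seen. No test between libraries was made, since no factor and time point was covered by more than 1 library. Ratios against 0 reads used 3 reads in place of 0 and are not lower limits. Alternatives were other thresholds, fold, depth, duplicates, bin position, read shift, locus extent, scaling, site width, ratio and distance.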

Additional observations from a re-analysis of the deposited data

How the results depend on the processing

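Of 129 values of 14 counts and shares recomputed under the alternatives, 122 stayed within 1.5 times the reported count or within its interval, and 7 moved. Keeping all reads as deposited, or asking for 2-fold over the surroundings, left every value as it was. The counts of C/EBPα and of C/EBPβ sites lower at 48 than at 0 hpi were 0 under every alternative. Such values say little about how far the results depend on the processing. With loci of the gene and 2 kb on either side, the member sites fell from 105 to 66 and the loci with PU.1 at 0 hpi from 29 to 18, since fewer bins were searched. The number of C/EBPα sites higher at 48 than at 3 hpi was 1 in place of 2 with a Poisson threshold of 1e-08, with scaling to reads outside called bins, with libraries thinned to the smallest, with bins shifted by 100 bp and with reads moved to the middle of the estimated fragment, alternatives for this count that were chosen after seeing the data. The cause was not tested. No paired analysis was possible because each factor and time point had 1 library, and no library could be left out for the same reason. Depth limits the C/EBPβ libraries most, where 3 reads correspond to a scaled level of 5.13 to 10.3.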
